A study of Homo sapiens with 12 samples.

Results

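In HCC95 cells, 84 clusters of H3K27ac peaks had a counterpart cluster in BICR31 and none in H358, H2009 or Ishikawa cells. They were defined by position alone: on chromosomes 1 to 22, peaks of a list with gaps of at most 12500 bp were joined, runs of 3 or more peaks were kept as clusters, and an HCC95 cluster counted if it overlapped a BICR31 cluster and no cluster of either list of the other 3 lines. These 84 are 15.0% of the 560 HCC95 clusters, and the 8 untreated lists held 11618 clusters in all. The count rests on the lists and the gap: the BICR31 list held 41161 peaks on these chromosomes against 22850 for HCC95, the shortest of the 8, and 15 clusters met the rule when every list was cut to that length by fold enrichment or score, or 3 when the gap was 5 kb. The rule used the same peaks that are described below, so the values are a description and carry no test.

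The 12 samples, all of human cancer cell lines, were profiled by ChIP-seq for histone H3 acetylated at lysine 27. HCC95, with 1 library, derives from a squamous carcinoma of the lung. BICR31, also with 1 library, is labelled lung adenocarcinoma on its sample, while the design text of the series places the line among head and neck squamous lines; the design text was followed. H358 and H2009 are lung adenocarcinoma lines and Ishikawa is an endometrial carcinoma line, each with 2 libraries, and none of these 8 libraries carries an Empty, Control or e3KRAB label. The remaining 4 libraries are H2009 cells labelled Empty, Control, e3KRAB1 and e3KRAB2, names that the labels do not expand and that the rule did not use; the labels give no treatment for any sample. Each line stands for its tumour type alone or in a pair, and with 1 library each for HCC95 and BICR31 there is no replicate check of the clusters in either.

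H3K27ac marks active promoters and enhancers. Runs of closely spaced acetylated elements are often found at genes that set cell identity, where they are bound by the main transcription factors of the cell type. In stratified and squamous epithelium that factor is p63, the product of TP63, which keeps the basal state together with partners of the SOX, AP-1, AP-2 and KLF families and upholds basal keratins, adhesion molecules and growth factor receptors.

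The squamous label was checked against 8 marker genes (TP63, KRT5, KRT14, KRT6A, DSG3, PKP1, TRIM29 and SOX2). All 8 had a peak over the gene or within 10 kb in HCC95 and in BICR31, against 1 to 5 in the 6 libraries of the other lines. TP63 was among the genes with a peak in every one of these libraries. BICR31 also had peaks at 5 of 8 lung adenocarcinoma markers, among them NKX2-1, the lineage factor of the alveolar epithelium, and HCC95 had peaks at 3, without NKX2-1. The H358 libraries had peaks at 5 and 4 of these 8, with NKX2-1 in both. H2009 had peaks at 2 and 2, without NKX2-1, and Ishikawa at 2 and 3, so these markers did not separate the lines. The deposited lists come in different forms: those of HCC95 and BICR31 have the columns of a broad peak list with median widths of 823 and 896 bp, those of H358 and H2009 the columns of a narrow peak list with medians of 348 to 383 bp, and the Ishikawa lists 5 columns with medians of 963 and 1522 bp. A difference between the squamous and the other lines therefore cannot be told apart from a difference between list forms.

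Positions of clusters are hg19, as in the files. No hg19 annotation was used: genes were assigned from approximate hg19 positions written down from general knowledge to the nearest kb, of which 182 of 206 matched the gene's RefSeq length in GRCh38.p14 within 10% or 2 kb, and 70 of 71 neighbouring pairs lay as far apart in both within 5 kb. Most of these genes were looked up after the positions of the clusters had been seen. By this assignment 66 of the 84 clusters lay over a named gene, 14 were placed between named genes and 4 were left unnamed.

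The sequences given here come from RefSeq in GRCh38.p14. The cluster over MIR205HG, the host transcript of miR-205, contains an epithelial microRNA that is abundant in basal and squamous cells. Its mature arms are given 5′ to 3′ with the seed, bases 2 to 8, in capitals; the 2 arms have different seeds.
hsa-miR-205-5p: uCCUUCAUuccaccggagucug
hsa-miR-205-3p: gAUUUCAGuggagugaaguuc
Of the gene starts inside a cluster, KLK9, KLK11 and SLC47A2 had a peak of HCC95 and of BICR31 within 1 kb and none of any other untreated library there. The 250 bases before the first listed start of each are given 5′ to 3′ on the gene's strand, here the minus strand, with the 50 bases next to the start in capitals; KLK11 and SLC47A2 have further listed starts.
KLK9 (chr19:51009593-51009842): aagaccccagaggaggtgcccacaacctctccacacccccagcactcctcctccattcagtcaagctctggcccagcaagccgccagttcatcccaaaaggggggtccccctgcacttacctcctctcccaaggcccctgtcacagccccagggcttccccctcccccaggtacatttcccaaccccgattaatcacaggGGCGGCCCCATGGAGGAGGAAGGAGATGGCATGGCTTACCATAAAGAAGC
KLK11 (chr19:51027647-51027896): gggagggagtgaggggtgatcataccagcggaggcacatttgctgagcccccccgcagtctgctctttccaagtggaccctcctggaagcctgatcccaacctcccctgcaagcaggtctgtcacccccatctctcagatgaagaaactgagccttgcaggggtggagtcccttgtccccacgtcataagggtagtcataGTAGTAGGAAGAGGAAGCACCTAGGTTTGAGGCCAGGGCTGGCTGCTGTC
SLC47A2 (chr17:19718980-19719229): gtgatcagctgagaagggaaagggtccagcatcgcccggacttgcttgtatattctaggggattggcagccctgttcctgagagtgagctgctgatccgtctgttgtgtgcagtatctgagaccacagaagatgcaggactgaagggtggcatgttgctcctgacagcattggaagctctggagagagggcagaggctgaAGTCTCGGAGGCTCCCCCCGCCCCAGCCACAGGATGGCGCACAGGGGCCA
KLK9 and KLK11 encode kallikrein-related serine proteases of epithelial surfaces, and SLC47A2 encodes a transporter that extrudes organic cations. Taking the first listed start of each gene with 50 bases after it, 3 motifs were searched on both strands: AP-1 (TGANTCA), AP-2 (GCCNNNGGC) and TEAD (GGAATG). None of these 3 promoters held one. Over the 35 genes whose start had a peak in both squamous lines, AP-1 letters were in 0, AP-2 letters in 11 (31.4%) and TEAD letters in 4 (11.4%), against 7.76%, 23.0% and 14.0% of 27305 promoters of the same length. The motifs and the promoters shown were chosen after the clusters had been seen.

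By size the 84 clusters looked like the other HCC95 clusters. Their median span was 20488 bp (lowest 10005, highest 76199) against 20560.5 bp for the other 476, and both had a median of 3 peaks; 58 of the 84 (69.0%) had exactly 3, as did 70.6% of the others. A score was formed for each cluster as the sum over its peaks of width in bp times the authors' fold enrichment. The median HCC95 score was 11335 (lowest 3821, highest 32690) against 12147 for the other HCC95 clusters, and the median of the mean fold per cluster was 3.34 against 3.62. In BICR31 the 84 met 87 clusters, since 3 of them overlapped 2, with a median span of 22313 bp and a median score of 13646, against 20408 bp and 12898 for the other 2528 BICR31 clusters. BICR31 had more peaks than HCC95 at 34 of the 84, fewer at 13 and as many at 37.

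The 2 squamous lines ranked the clusters differently. Each score was placed as a percentile among all clusters of its own list. Across the 84 clusters the log scores of HCC95 and BICR31 had a Pearson r of 0.16 and a Spearman rho of 0.17, and the log spans an r of 0.40 and a rho of 0.44; across the 298 clusters that BICR31 shared and another line also had, the r of the log scores was 0.35. Clusters of 1 list share a library and a peak call, and these values describe them only. In HCC95 11 clusters were above the 90th percentile, in BICR31 13, and 1 in both.

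**Figure D1:**
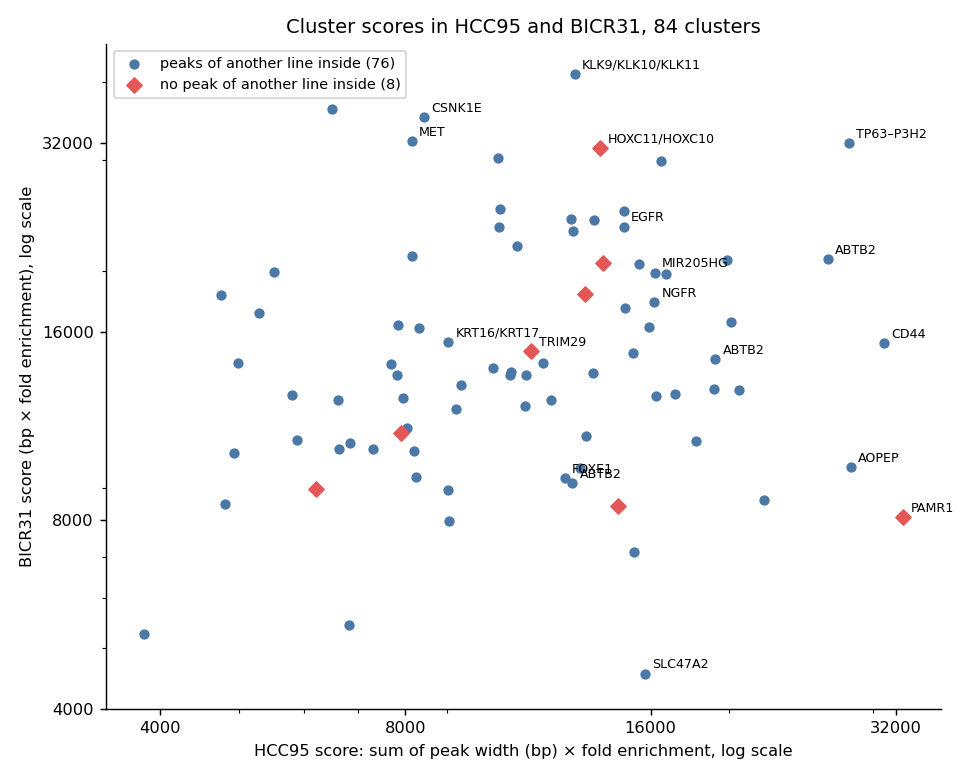
Score of each of the 84 clusters (sum of peak width in bp times fold enrichment) in HCC95 on the x axis and in BICR31 on the y axis, both on log scales. Diamonds are the 8 clusters with no peak of another untreated line; the points are widely scattered, and the cluster between TP63 and P3H2 is high on both axes while PAMR1 is highest in HCC95 and low in BICR31.

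The cluster with the highest mean percentile, and the 1 above the 90th in both lines, lay 3′ of TP63, between it and P3H2, at chr3:189618004-189662835. TP63 encodes the p63 factor itself. HCC95 had 8 peaks over 44832 bp with a score of 28041 (percentile 98.4), and BICR31 had 6 peaks over 46344 bp with a score of 31956 (percentile 97.9). The folds were low, 1.70 to 2.94 in HCC95 and 2.15 to 3.12 in BICR31, and the peaks were wide, up to 2975 and 2403 bp. Of the 8 HCC95 peaks 6 lay over a BICR31 peak. Inside this span H358 replicate 1 had 3 peaks and H2009 replicate 1 had 1, while H358 replicate 2, H2009 replicate 2 and both Ishikawa libraries had 0. Both squamous libraries were thus high here, and each adenocarcinoma line had peaks in 1 of its replicates. This holds for the span only: over TP63 or within 10 kb of it, all 8 untreated libraries had a peak. In Ishikawa replicate 2 these TP63 peaks covered 7663 bp.

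**Figure D2:**
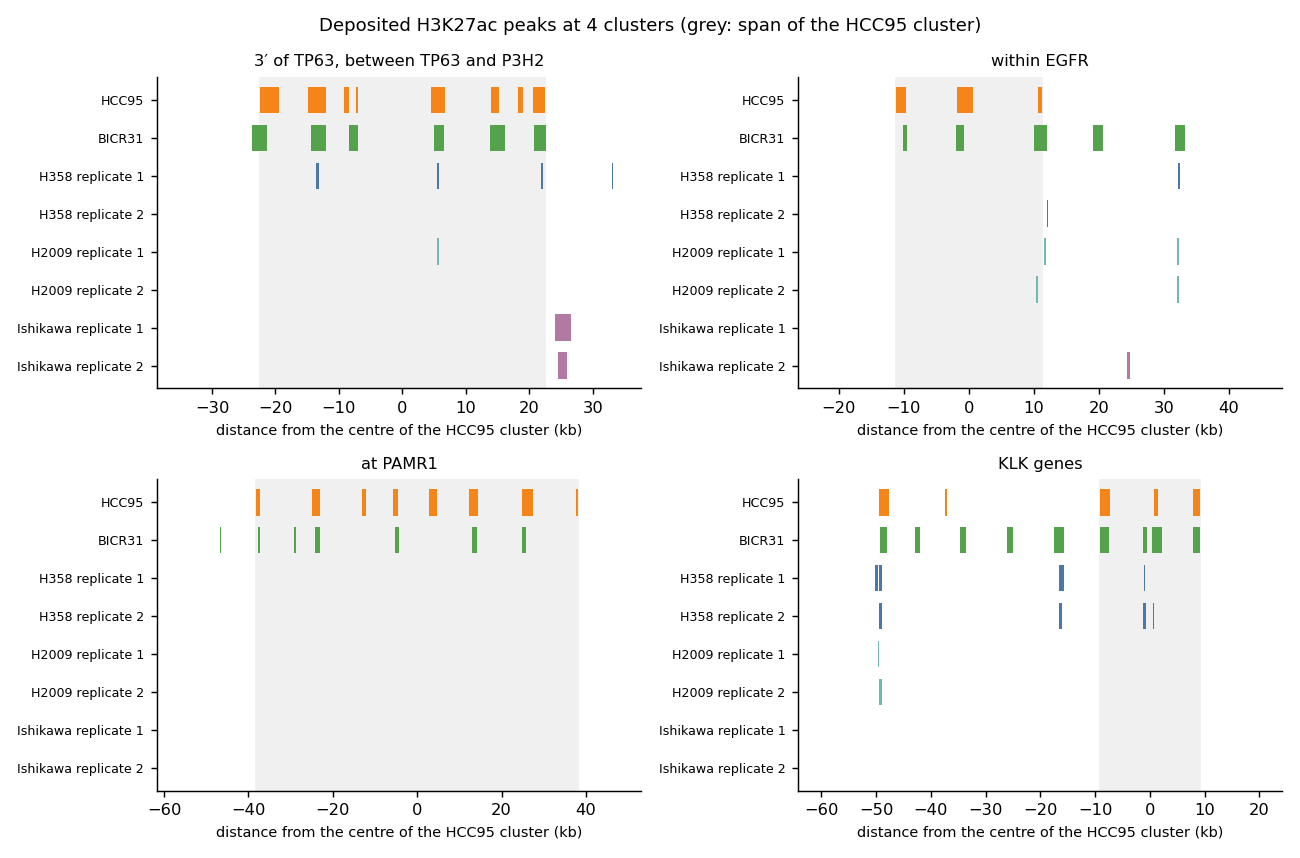
Deposited peaks of the 8 untreated libraries (rows) around 4 clusters, by distance from the centre of the HCC95 cluster in kb, with the HCC95 span in grey. HCC95 and BICR31 peaks line up at TP63, EGFR and the KLK genes. The BICR31 cluster goes on beyond the HCC95 span at EGFR and KLK, and at KLK unjoined HCC95 peaks lie there too. No line besides HCC95 and BICR31 has a peak inside the span at PAMR1.

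Among the factor genes of a list of 17 squamous transcription factors, TP63, BNC1 and FOXE1 had such a cluster within 50 kb. BNC1 encodes basonuclin, a zinc finger protein of basal keratinocytes. The cluster between BNC1 and SH3GL3 was small in both lines: 3 peaks each, 17246 and 18076 bp, percentiles 14.0 in HCC95 and 36.5 in BICR31. None of the other untreated libraries had a peak in it. FOXE1, a forkhead factor of thyroid and oral epithelium, lay at a cluster of 3 peaks in each line, at percentiles 54.4 and 23.1, and H358, in both replicates, and Ishikawa, in both, also had peaks there.

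Basal epithelial structure genes gave 4 of 19, NECTIN1, TRIM29 and the neighbours KRT14 and KRT17, the last pair at 1 shared cluster that lay over KRT16 and KRT17. These keratins form the intermediate filaments of basal and activated keratinocytes, and their near-identical copies make the placing of reads among them uncertain. The keratin cluster had 4 peaks in each line, at percentiles 22.5 in HCC95 and 65.7 in BICR31, and each H358 and H2009 library had 1 peak in it. TRIM29, a basal cell protein of the tripartite motif family, had a cluster of 3 peaks in each line that lay over the other line's peaks 3 of 3 times, with folds of 2.97 to 3.54 in HCC95 and 2.87 to 2.94 in BICR31. Percentiles at TRIM29 were 44.9 and 63.1, and none of the other untreated lines had a peak. NECTIN1, a cell adhesion molecule of adherens junctions, had 3 peaks in each line, with scores of 9032 in HCC95 and 8949 in BICR31. The NECTIN1 cluster was at percentile 22.7 in HCC95 and lower still in BICR31, and H358 had 2 and 1 peaks in it, H2009 1 and 1 and Ishikawa 0.

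Adhesion and growth genes were represented by CD44 (1 of 9 genes), EGFR (1 of 14) and TXNRD1 (1 of 11 in the NFE2L2 oxidative stress list). CD44, the hyaluronan receptor, carried 7 HCC95 peaks over 62124 bp (percentile 99.6) and 5 BICR31 peaks over 35290 bp (percentile 65.3). A further BICR31 peak, at a fold of 3.62, lay unjoined inside the HCC95 span. An unjoined HCC95 peak, at a fold of 2.9, overlapped the BICR31 span, and neither peak enters these values. All 6 other untreated libraries had peaks in the CD44 span, 1 and 2 in H358, 3 and 3 in H2009 and 1 and 1 in Ishikawa. EGFR, the epidermal growth factor receptor, carried 3 HCC95 peaks over 22511 bp within the gene (percentile 71.7) and 5 BICR31 peaks over 43331 bp (percentile 91.2). H2009 replicate 2 had 1 peak in the EGFR span and the other 5 libraries had 0. The EGFR start, outside these clusters, had a peak within 1 kb in both squamous lines and in all 6 other untreated libraries. TXNRD1, a thioredoxin reductase, was low in HCC95 (percentile 36.9) and high in BICR31 (93.4), and all 6 other untreated libraries had peaks in its span. The list of 10 late differentiation genes gave 0 clusters of this kind, and none of its genes lay at any HCC95 cluster, whereas 6 had a BICR31 cluster. In all, 10 of the 80 listed genes lay at one of the 84 clusters, 23 at any HCC95 cluster and 57 at any BICR31 cluster; the lists were set with earlier results of these data known, so these counts are not independent evidence of squamous identity. The 10 genes became 1 with lists of equal length, 0 at a gap of 5 kb and 0 with the higher-ranked 50% of each list.

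The other clusters near the top carried genes of several kinds. After TP63 came a cluster over ABTB2, an ankyrin repeat and BTB domain protein, with 5 peaks in each line and percentiles 97.7 in HCC95 and 86.6 in BICR31. In this ABTB2 span H358 had 0 and 1 peaks, H2009 2 and 2 and Ishikawa 0 and 0. MIR205HG, also among the highest, had 5 HCC95 peaks over 37891 bp and 7 BICR31 peaks over 48347 bp, at the close percentiles 82.3 and 83.8, with folds of 1.84 to 2.30 and 2.33 to 3.60. H358 replicate 1, H2009 replicate 1 and Ishikawa replicate 1 had 1 peak each in the MIR205HG span, and the second library of each line had 0. NGFR, the low-affinity nerve growth factor receptor found on basal cells, had 4 peaks in each line, and each HCC95 peak lay over a BICR31 peak. Percentiles at NGFR were 81.9 and 77.6. In the NGFR span H358 had 0 and 2 peaks, H2009 1 and 0 and Ishikawa 1 and 1. At the KLK9, KLK10 and KLK11 genes HCC95 had 3 peaks over 18199 bp (percentile 58.0), while the BICR31 cluster had 9 peaks over 58477 bp, reached on to KLK6, KLK7 and KLK8, and at percentile 99.6 had the highest BICR31 score of the 84. H358 had 1 and 2 peaks in that HCC95 span and the remaining 4 libraries had 0. Within the BICR31 span at KLK, HCC95 had further, unjoined peaks at folds of 3.72 and 5.03, the former within 1 kb of the KLK6 start. HOXC10 and HOXC11, homeobox genes of posterior body regions, carried 3 HCC95 peaks (percentile 66.4), and there the BICR31 cluster of 6 peaks (percentile 97.7) reached on over HOXC9, HOXC8 and HOXC6. A further, unjoined HCC95 peak lay inside this BICR31 span, at a fold of 3.71.

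**Figure D3:**
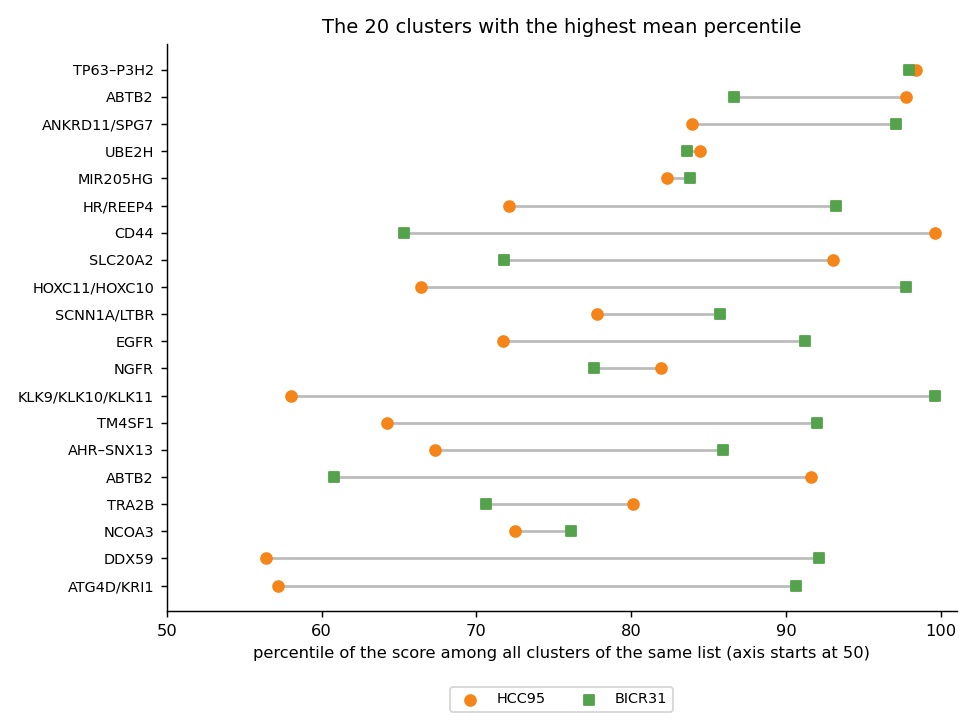
Percentile of the cluster score within its own list, HCC95 as circles and BICR31 as squares, for the 20 clusters with the highest mean of both; the axis starts at 50. TP63, UBE2H and MIR205HG have nearly the same percentile in both lines, whereas CD44 is higher in HCC95 and KLK9 to KLK11 in BICR31.

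The rest of the 20 highest clusters lay at genes of varied function. A cluster over ANKRD11 and SPG7, a chromatin-associated ankyrin repeat protein and a mitochondrial protease, was at percentiles 83.9 in HCC95 and 97.1 in BICR31, and all 6 other libraries had 2 to 4 peaks in it. UBE2H, a ubiquitin-conjugating enzyme, had 2 of the 84 clusters, at 84.4 and 83.6 for one and 93.4 and 49.9 for the other. HR, a corepressor needed for hair growth, shared a cluster with REEP4 at 72.1 and 93.2. The phosphate transporter gene SLC20A2 was at 93.0 and 71.8. SCNN1A, a subunit of the epithelial sodium channel, and LTBR, a lymphotoxin receptor, shared a cluster at 77.8 and 85.7 that had the highest single fold of these 20 in BICR31, 6.06. TM4SF1, a membrane protein of the transmembrane 4 family, was at 64.2 and 92.0, with peaks in H358 replicate 1 and both H2009 libraries and in neither Ishikawa library. The cluster between AHR, the aryl hydrocarbon receptor, and SNX13 was at 67.3 and 85.9 and had no peak of another line. A second cluster over ABTB2 was at 91.6 and 60.8. TRA2B, a splicing factor, was at 80.1 and 70.6, and the nuclear receptor coactivator NCOA3 at 72.5 and 76.1. At NCOA3 each of the 6 other libraries had 2 peaks. DDX59, a helicase, was at 56.4 and 92.1, and ATG4D, an autophagy protease, with its neighbour KRI1 at 57.2 and 90.6. All 6 other untreated libraries also had peaks in the clusters at HR, SLC20A2, SCNN1A and LTBR, TRA2B, DDX59 and ATG4D. The same held for the second ABTB2 cluster and for the UBE2H cluster at 84.4 and 83.6. In the other UBE2H cluster 4 of these libraries had a peak.

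Signalling and growth control genes outside the fixed lists were also present further down, and were picked by name after their values were seen. NOTCH3, a receptor of the Notch pathway, had a cluster of 3 HCC95 peaks (percentile 15.4) and 6 BICR31 peaks (percentile 87.3), and all 6 other libraries had 1 or 2 peaks in it. The kinase gene SRC had 3 peaks in each line, at 86.6 and 48.6, and all 6 other libraries had 1 or 2 peaks in its span. BCL6, a transcriptional repressor, had 4 and 3 peaks, at 91.2 and 50.4. In the BCL6 span H358 had 0 and 1 peaks, H2009 0 and 0 and Ishikawa 1 and 1. CDKN1A, the cell cycle inhibitor p21, was at 44.0 and 44.9. In its span H2009 had 0 peaks, H358 had 1 and 2 and Ishikawa 2 and 2. The Ishikawa peaks covered 7360 and 4315 bp there, against 3122 bp for HCC95. TINCR, a transcript of epidermal differentiation, was at 26.1 and 44.3, with 1 peak of H2009 replicate 2 as the only one of another line. At the foot of the order, an unnamed cluster at chr4:189353201-189368756 had the lowest HCC95 score of all 560, 3821, and a BICR31 score of 5269.

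Several clusters ranked high in 1 line and low in the other. PAMR1, a gene for a secreted regeneration-associated protein, had the widest cluster and the highest HCC95 score of the 84: 8 peaks over 76199 bp, percentile 99.8, against 4 joined BICR31 peaks over 23773 bp at percentile 15.0. A further 3 BICR31 peaks lay inside the HCC95 span at PAMR1 with gaps too wide to join, at folds of 3.56, 4.99 and 3.30, and they do not enter the BICR31 count, span or score. No other untreated library had a peak in it. AOPEP was at 98.6 in HCC95 and 26.2 in BICR31, and PLEKHA2 at 94.8 and 18.1. In the AOPEP span 5 of the 6 other untreated libraries had peaks, and in the PLEKHA2 span all 6 had them. Ishikawa peaks covered 7620 and 6208 bp at AOPEP, against 12703 bp for HCC95. At PLEKHA2 they covered 5574 and 5627 bp, against 6152 bp for HCC95. At PLEKHA2 the BICR31 cluster held 3 peaks, and 2 more BICR31 peaks inside the HCC95 span, at folds of 3.59 and 3.91, were likewise left unjoined. In the other direction, the cluster over ANKRD11 at chr16:89408500-89428809 was at 7.3 in HCC95 and 99.0 in BICR31, where it had 12 peaks over 90104 bp, the most peaks and the widest span on the BICR31 side. MET, the hepatocyte growth factor receptor, was at 15.6 and 98.0, and CSNK1E, a casein kinase, at 18.8 and 98.7. The clusters over ANKRD11, MET and CSNK1E each had 3 joined peaks in HCC95, and 12, 7 and 6 in BICR31. Within the BICR31 spans HCC95 had 2 further, unjoined peaks at ANKRD11, at folds of 3.97 and 3.81, and 2 at MET. Part of the contrasts at ANKRD11 and MET is therefore in which peaks joined. At CSNK1E HCC95 had no unjoined peak in the BICR31 span. Of the 6 other untreated libraries, 5 had peaks in the HCC95 span at ANKRD11, 3 at MET and 5 at CSNK1E.

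Having no cluster in the other lines did not mean having no acetylation there. Peaks of at least 1 of the 6 other untreated libraries were found inside 76 of the 84 spans, and of all 6 inside 33. The 8 without any were over HOXC10 and HOXC11, BICD2, PAMR1, TRIM29 and SBF2, and between AHR and SNX13, TMEM67 and PDP1, and BNC1 and SH3GL3. Library by library, 63.1% to 72.6% of the 84 held a peak, against 85.5% to 88.4% of the other 476 HCC95 clusters. The rule, which bars clusters of these libraries, favours a lower share in the 84. At most 1 peak in each of the 6 libraries was present at 28 clusters, and 9 had 3 or more peaks of some library with a gap above 12500 bp between them. CSNK1E was such a case, with 3 peaks in each H358 library and 4 in Ishikawa replicate 1. At both ends of the CSNK1E span these libraries had peaks, and between them only HCC95 and BICR31 had one, with folds of 3.09 to 4.25 for the 3 HCC95 peaks.

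**Figure D4:**
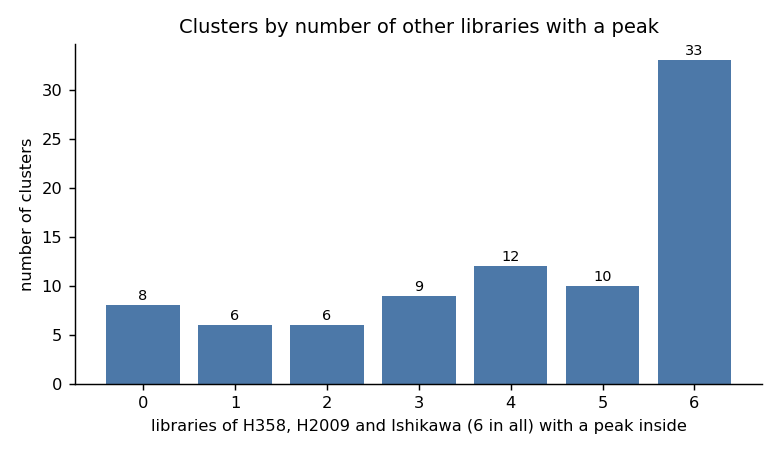
Number of the 84 clusters (y axis) by how many of the 6 libraries of H358, H2009 and Ishikawa had a peak inside the HCC95 span (x axis). The tallest bar is the 33 clusters with a peak in all 6, and 8 clusters had a peak in none.

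Peak by peak, 173 of the 300 HCC95 peaks in the 84 clusters (57.7%) lay under no peak of another untreated line, against 158 of 1073 (14.7%) in the 298 HCC95 clusters that BICR31 shared with another line as well. The rule itself favours such a gap. Overlap with a BICR31 peak, which the rule does not require since it compares cluster spans, was found for 235 of the 300 peaks (78.3%) and for 959 of the 1073 (89.4%). HCC95 peaks covered 16.7% of the summed span and BICR31 peaks 14.2%, while H358 covered 1.81% and 1.83%, H2009 1.56% and 1.66% and Ishikawa 7.22% and 5.69%. In the other 476 HCC95 clusters the same shares were 16.3% and 14.5% for HCC95 and BICR31, 4.73% to 5.78% for the H358 and H2009 libraries and 17.8% and 15.4% for Ishikawa. The lower coverage by H358 and H2009 moves with their narrower peaks, whose part in it was not tested. Coverage by each of these lists was also lower in the 84 than in the other clusters. The rule favours this, since it bars their clusters from the 84, so that contrast cannot bear on peak width.

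**Figure D5:**
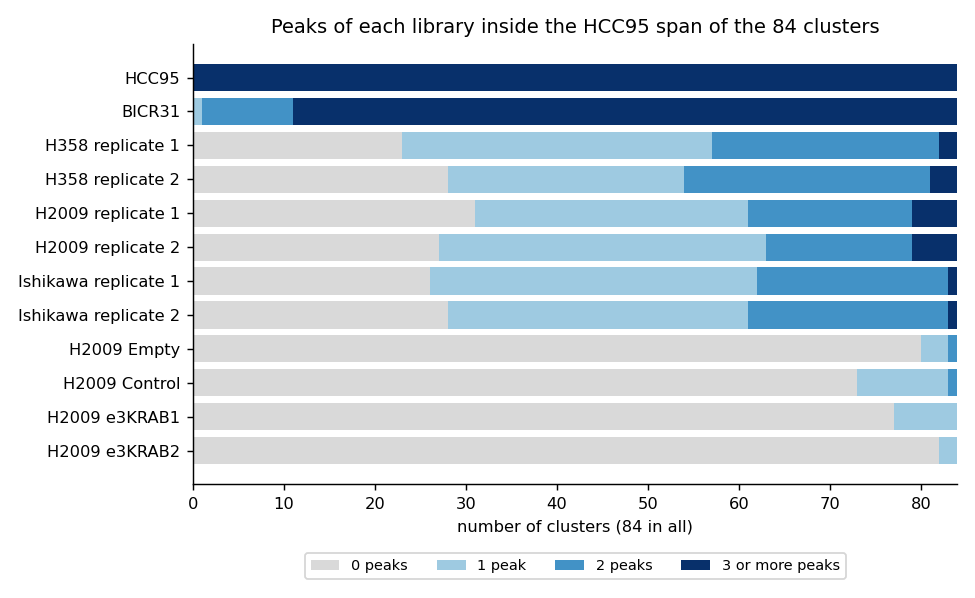
For each of the 12 libraries (rows), the number of the 84 clusters whose HCC95 span holds 0, 1, 2 or 3 or more of its peaks. BICR31 has 3 or more inside 73 spans, the 6 untreated libraries of the other lines in 1 to 5 each, and the 4 further H2009 libraries have none in 73 to 82.

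The further H2009 libraries had much shorter lists, of 1379 to 3257 peaks, and had a peak in few of the clusters: Empty in 4, Control in 11, e3KRAB1 in 7 and e3KRAB2 in 2. Of the other 476 HCC95 clusters, 19.3%, 27.1%, 21.4% and 13.0% held a peak of these libraries, against 4.76%, 13.1%, 8.33% and 2.38% of the 84. In all 15 of the 84 had a peak in some of them, and each of those 15 also had one in an H2009 replicate. These lists were not used by the rule, but they come from a line that it used.

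By chromosome, 9 of the 84 lay on chromosome 11, where HCC95 had 46 clusters, and 7 each on chromosomes 3, 7 and 19. On chromosomes 3, 7 and 19 HCC95 had 38, 37 and 40 clusters in all. The share of HCC95 clusters among the 84 was 19.6% on chromosome 11 and 18.4%, 18.9% and 17.5% on these, against 15.0% of all 560. All 7 on chromosome 3 were on the long arm, between 149 and 197 Mb, at TM4SF1, SSR3 and TIPARP, PLD1, TRA2B, BCL6, TP63 and RNF168; HCC95 had 23 clusters in this stretch and BICR31 60. On chromosome 11 between 34 and 36 Mb, 5 of the 10 HCC95 clusters were among the 84: 3 over ABTB2, 1 over CD44 and 1 over PAMR1. In this stretch HCC95 had 91 peaks, BICR31 70, H358 19 and 18, H2009 35 and 32 and Ishikawa 24 and 29, and the neighbouring 30 to 34 Mb, longer than it, had 20 HCC95 peaks and 0 HCC95 clusters. In that neighbouring stretch BICR31 had 53 peaks and 3 clusters, H358 19 and 14 peaks, H2009 16 and 21 and Ishikawa 32 and 34. Both stretches were picked out after their values were seen, copy number was not measured here, and the part of either line's copy number in peak numbers was not tested. Chromosome 13 had none of the 84, with 1 HCC95 cluster in all.

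At gene starts, 61 pairs of a named gene and a cluster could be placed by strand, and in 43 the start lay inside the cluster of HCC95 or BICR31. Both squamous lines had a peak within 1 kb of the start in 35 of these. All 6 other untreated libraries had one at 22 of the 35, CD44, NOTCH3 and MET among them, and none had one at 3, which are the KLK9, KLK11 and SLC47A2 starts given above. SLC47A2 had 4 HCC95 peaks (percentile 78.7) and 3 BICR31 peaks (percentile 2.0), the lowest BICR31 score of the 84. Elsewhere in the SLC47A2 span, away from the start, 5 of the 6 other untreated libraries had peaks.

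The limits of the rule ran close to many clusters. With exactly 3 HCC95 peaks, 58 of the 84 were at the minimum, with a median score of 9290, and 233 clusters of 2 HCC95 peaks, with a median score of 6485 and span of 9993 bp, met every other condition. On the other side, 55 shared HCC95 clusters were barred only by clusters of exactly 3 peaks, and 40 by the list of a single library, 12 of them by H358 replicate 1. Inside the limit, 53 of the 84 had 2 joined peaks in some list of the other lines, 1 peak short of being barred.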

How the data were processed

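Each of the 12 samples came with its own deposited peak list. The alignment used BWA and hg19, per the submitters' processing notes. The peak caller, the control and pooling were not given in the sources used here, except that Ishikawa peak names begin with MACS. The deposited values of a peak were, in all but the Ishikawa lists, a fold enrichment ratio, a −log10 p and a −log10 q by the authors, and a score; a single deposited score was what Ishikawa peaks carried. These are the authors' values and served only within their own list. A narrowPeak summit offset, another deposited kind of value, was not used. Read numbers are not in the lists, so depth is unknown.

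Peaks on chromosomes 1 to 22 were joined with Python 3.11.15 at gaps of at most 12500 bp; overlap meant 1 bp or more. The joining was tested on simulated peaks with planted clusters. Genes were called within 50 kb for lists and 10 kb for markers. Named were the 20 clusters with the highest mean percentile, those at a listed gene, the widest and most-peaked of each line, and others as stated. The members and lists were chosen with earlier results of these data known. Alternatives covered the gap, the minimum of peaks, the overlap, the length of lists and leaving out libraries.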

Additional observations from a re-analysis of the deposited data

How the results depend on the processing

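The number of clusters depended on nearly every setting of the rule, and the values below are what each gave in place of 84 clusters, a median span of 20488 bp and 10 listed genes. A gap of 5 kb gave 3 clusters with a median span of 11512 bp and 0 listed genes, and a gap of 20 kb gave 163 clusters, which overlapped 56 of the 84. A minimum of 2 peaks gave 299 clusters, a median span of 10391 bp and 17 listed genes, and overlapped 31 of the 84. A minimum of 4 gave 29 clusters, 34500 bp and 6 genes, and overlapped 17 of the 84. Barring by any single peak of another line left 8 clusters and 2 listed genes. The higher-ranked 50% of each list gave 2 clusters and 0 genes, neither cluster overlapping any of the 84. Cutting every list to the 22850 peaks of the shortest, which is the HCC95 list, gave 15 clusters and 1 listed gene, with 11 of the 15 overlapping the 84. Asking that 50% of the HCC95 span be covered by BICR31 clusters kept 73. Leaving out 1 of the 6 excluding lists at a time gave 87 to 96 clusters, and leaving out replicate 1 or replicate 2 of all 3 lines gave 108 and 107; listed genes ran from 10 to 13 and the median span from 20204 to 20509 bp. Starting from BICR31 instead of HCC95 gave 86 BICR31 clusters against 87. Of the 20 highest clusters, 16 were among the highest 20 by width alone, 15 by width times −log10 q and 5 by mean fold enrichment. No paired analysis was possible because HCC95 and BICR31 have 1 library each and no group comparison was tested. The cause of these shifts was not tested beyond what each setting does by construction.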
